A study of Mus musculus with 34 samples.

Results

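Cxcl9, Cxcl10 and Cxcl11 were examined as 3 of 55413 annotated genes (GENCODE vM21), listed by name as neighbours on mouse chromosome 5. All 3 lie on the minus strand of mm10, Cxcl9 at chr5:92321347-92328079, Cxcl10 at chr5:92346638-92348889 and Cxcl11 at chr5:92359544-92365485, so that 37.4 kb separate the start sites of Cxcl9 and Cxcl11. Cxcl9 and Cxcl10 are annotated as protein-coding and Cxcl11 as a polymorphic pseudogene in this C57BL/6 annotation. Art3, an ADP-ribosyltransferase family gene on the plus strand, starts between Cxcl9 and Cxcl10 and runs across Cxcl10 and Cxcl11, and Naaa and Sdad1 have their start sites within the 50 kb beyond Cxcl9. The locus in what follows is the span of the 3 genes plus 50 kb on either side, 144139 bp in all, and it held 387 of the 1393623 peaks of all 30 lists. A promoter is the start site of the longest transcript with 2.5 kb on either side.

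CXCL9, CXCL10 and CXCL11 are secreted ligands of the receptor CXCR3, through which activated T cells and NK cells are drawn to inflamed tissue. Their genes are induced by interferons, and in myeloid cells stimulated through TLR4 by NF-κB together with IRF3. Cohesin and the insulator protein CTCF are known to fold chromosomes into loops, and CTCF sites often mark the ends of such loops.

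The ChIP-seq peak lists came from bone marrow-derived dendritic cells (BMDCs) of C57BL/6 mice, 8 weeks old per the labels, grown for 6 days with GM-CSF and selected for CD11c. WT cells carried CreER alone and KO cells CreER with CTCF fl/fl alleles. Both received 4-OH tamoxifen on the first day of culture, and the Cre was expressed from Rosa26, so that deletion was not tied to a cell type. WTLPS and KOLPS are the same cells treated for 3 h with 100 ng/ml of LPS, the cell wall component of Gram-negative bacteria that TLR4 senses. The STAT5 lists covered WT and KO after GM-CSF was given again for 15 min. There was 1 list for each antibody and condition and no replicate to compare, so that no difference was tested, and the intervals below are 95% intervals that cover counting error only. Lists held from 504 to 96475 peaks, and the p65 lists were the shortest, with 781 peaks for WT, 5465 for WTLPS, 504 for KO and 1752 for KOLPS. The CTCF list held 60537 peaks in WT and 20151 in KO, which is the check the files allow of the deletion, and KO cells thus kept CTCF peaks. H3K4me3 peaks lay at the promoters of 12 of 12 dendritic or myeloid markers in all 4 lists, and at those of 1 of 5 T cell, 2 of 5 B cell, 1 of 5 neutrophil, 1 of 4 erythroid and 2 of 3 epithelial markers. Of all protein-coding promoters, 56.7% had an H3K4me3 peak in WT, 57.0% in WTLPS, 57.2% in KO, 56.2% in KOLPS.

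Sequences are shown for the promoters at which the NF-κB subunit p65 (RelA) was found and for the sites that the results turn on. The 250 bases before the RefSeq start (GRCm38.p6, minus strand, read 5′ to 3′) are given for Cxcl9 (chr5:92328080-92328329) and Cxcl10 (chr5:92348890-92349139), followed by the bases around the p65 summit upstream of Cxcl11 (chr5:92374923-92375073) and around the CTCF core motif beside the strongest CTCF summit of the locus (chr5:92381954-92381995), all on the minus strand. Capitals mark matches of the NF-κB consensus, of the interferon-stimulated response element (ISRE, GAAA followed by any 2 bases and GAAA) or, in the last sequence, of the CTCF core, each searched on both strands.
Cxcl9 promoter: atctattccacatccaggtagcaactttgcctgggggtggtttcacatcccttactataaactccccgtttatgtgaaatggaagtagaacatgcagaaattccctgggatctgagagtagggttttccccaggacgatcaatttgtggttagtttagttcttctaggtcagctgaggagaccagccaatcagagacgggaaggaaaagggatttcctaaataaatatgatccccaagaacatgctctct
Cxcl10 promoter: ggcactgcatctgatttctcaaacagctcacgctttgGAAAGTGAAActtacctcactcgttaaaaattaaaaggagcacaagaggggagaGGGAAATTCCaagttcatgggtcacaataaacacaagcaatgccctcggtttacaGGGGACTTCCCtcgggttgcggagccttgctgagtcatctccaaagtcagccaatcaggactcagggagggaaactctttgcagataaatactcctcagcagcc
p65 site upstream of Cxcl11: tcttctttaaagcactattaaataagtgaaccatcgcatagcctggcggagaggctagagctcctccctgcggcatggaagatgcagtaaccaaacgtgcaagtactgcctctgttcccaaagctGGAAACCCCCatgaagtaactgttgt
CTCF site beyond Cxcl11: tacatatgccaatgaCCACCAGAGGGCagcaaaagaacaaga
The Cxcl10 promoter held an ISRE 213 bases before the start and NF-κB matches 159, 104 and 103 bases before it, the last of these overlapping each other. Of 27025 RefSeq promoters, 7.01% held an NF-κB match and 3.04% an ISRE in the same 250 bases. The Cxcl9 promoter held neither set of letters, and neither promoter held the STAT consensus TTCNNNGAA, which 7.18% of promoters held. The NF-κB match at the site upstream of Cxcl11 lay on the other strand, within 100 bp of the summit but not wholly within 50 bp, and the CTCF core lay 57 bp from its summit.

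**Figure D1:**
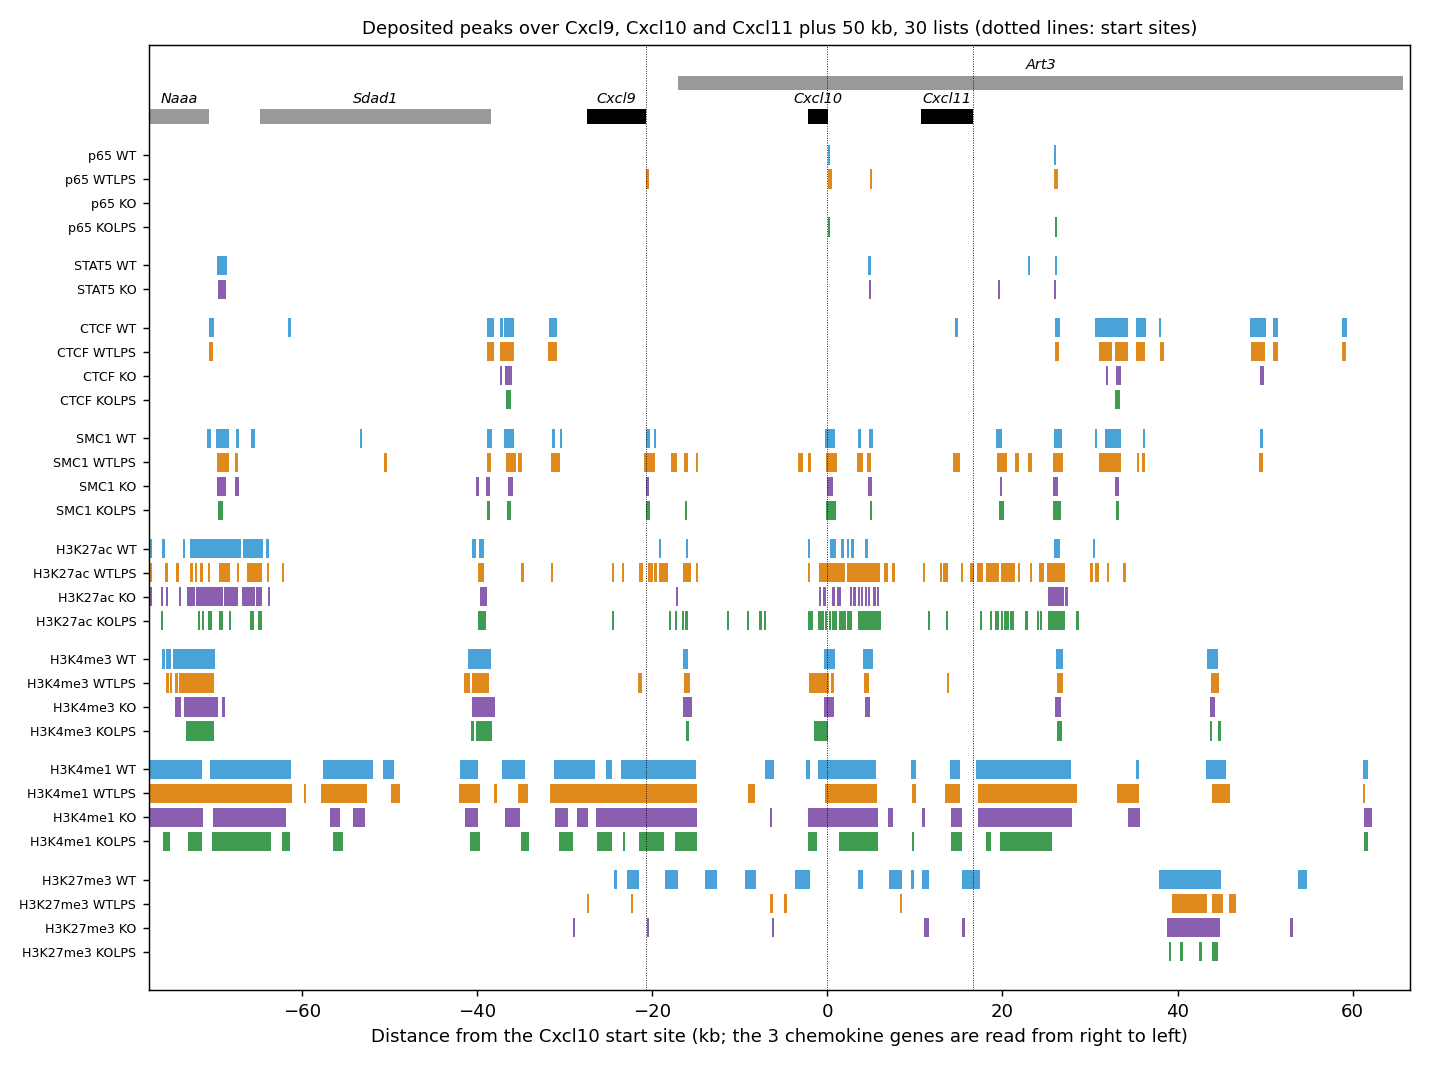
Peaks of all 30 lists over the locus, 1 line per list, as bars from peak start to peak end against the distance from the Cxcl10 start site in kb; gene bodies are drawn on top and dotted lines mark the 3 start sites. p65 peaks lie only between about 20 kb left and 26 kb right of Cxcl10, and the KO line for p65 is empty.

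p65 was found at 4 sites of the locus, at the promoters of Cxcl9 and Cxcl10 and upstream of Cxcl10 and Cxcl11, and all 4 were called in WTLPS. WT had 2 peaks, KO had 0 and KOLPS had 2. With each p65 list cut to its 504 strongest peaks, the length of the KO list, WTLPS had 0 and WT still 2, so the order of WT and WTLPS turned. At the promoters of the 3 genes, p65 was called at 1 in WT and 2 in WTLPS, and 0 in KO and 1 in KOLPS, against 0.474, 2.86, 0.342 and 1.86% of protein-coding promoters. Of 21938 protein-coding genes, each taken with 50 kb on either side in windows whose length varies with the gene, 0.852% held as many p65 peaks in WT, 2.53% in WTLPS and 3.19% in KOLPS.

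The number of fragments stacked at a summit was recovered from each peak's fold enrichment and p-value, which MACS2 computes from it. At the Cxcl10 promoter the p65 summit, at chr5:92349028, lay 161 bp upstream of the start of the longest transcript. It lay between the NF-κB matches shown above, whose distances count from the RefSeq start, which lies further upstream. The summit held 14 fragments in WT, 27 in WTLPS and 11 in KOLPS, with no peak in KO. A summit needed 8 fragments to reach the lowest p-value of the WT list at its background, 6 in WTLPS and 7 in each KO list. A p65 peak was thus called there before LPS in WT, and the WTLPS summit was the highest of the 4 lists. Per background coverage, the WTLPS signal was 1.61 times that of WT (0.814 to 3.32), an interval that holds 1. The KOLPS signal was 0.426 times that of WTLPS (0.191 to 0.888). The peak ranked 334 of 781 in WT, 551 of 5465 in WTLPS and 1160 of 1752 in KOLPS. A p65 promoter peak in WT, WTLPS and KOLPS but not KO, as at Cxcl10, was present at 0.141% of protein-coding promoters. Of the promoters with a p65 peak in WT, 51.9% had none in KO.

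At the Cxcl9 promoter a p65 peak was called in WTLPS alone, 221 bp upstream of the start, with 14 fragments (7.65 to 23.5) and a rank of 2070 of 5465. WT, KO and KOLPS had no peak there. A p65 promoter peak in WTLPS only was present at 1.83% of promoters, and 69.1% of the promoters with a p65 peak in WTLPS had none in KOLPS, so the missing KOLPS peak at Cxcl9 was shared with most of them. Thinned to the coverage of the WT library, the Cxcl9 peak would still have been called with a chance of 0.996. That chance takes the 14 WTLPS fragments as given, at a site listed only because WTLPS had a peak there. The reason for the missing WT peak was thus not tested. No p65 peak lay at the Cxcl11 promoter in any list.

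The site 9.51 kb upstream of Cxcl11, inside an intron of Art3, had p65 peaks with 13 fragments in WT, 15 in WTLPS and 10 in KOLPS, and none in KO. Its signal differed little with LPS in WT, with a ratio of 0.962 per coverage (0.427 to 2.20), and KOLPS against WTLPS gave 0.698 (0.280 to 1.66). The remaining site, 4.97 kb upstream of Cxcl10 and also inside Art3, was the weakest, with 9 fragments in WTLPS and no peak elsewhere. Thinned to the WT coverage it would have been called with a chance of 0.545, while thinned to the KOLPS coverage the chance was 0.994, and neither WT nor KOLPS had a peak there. Both chances start from the WTLPS count that put this site on the list, so the reason for the missing peaks was not tested.

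**Figure D2:**
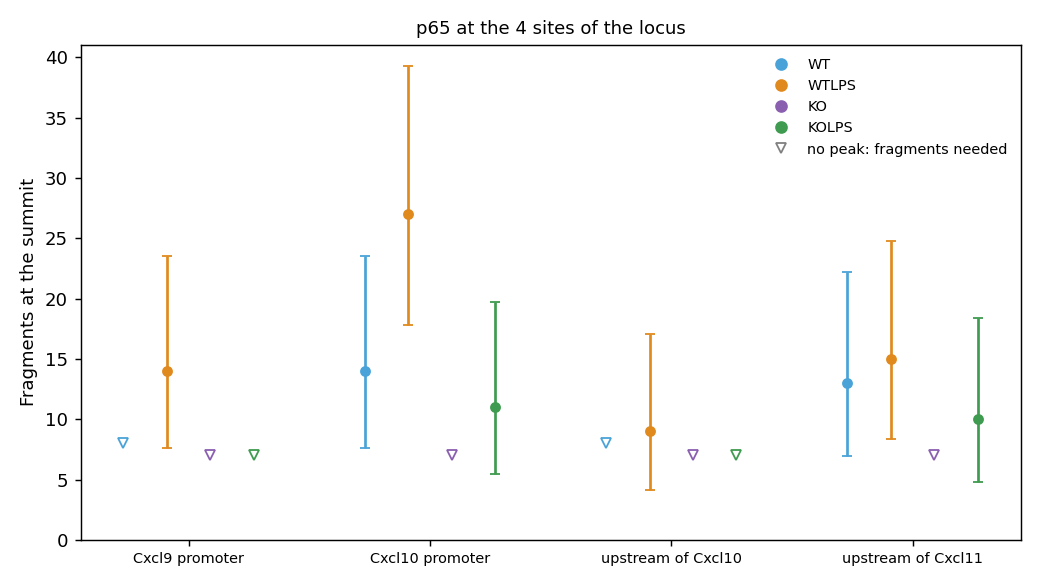
Fragments at the p65 summit (y axis) at the 4 sites of the locus in each condition, with 95% Poisson intervals; open triangles give, where no peak was called, the fragments a summit would have needed at the background of that list. WTLPS has a peak at all 4 sites and KO at none.

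The p65 sites carried other marks. SMC1, a cohesin subunit, had a peak at all 4 of them in every condition, KO included, and 88.0% of all p65 peaks in WTLPS overlapped an SMC1 peak. H3K27ac, a mark of active promoters and enhancers, lay at 4 of 4 p65 peaks in WTLPS, against 75.4% of all p65 peaks. STAT5 had a peak at 1 of the 2 p65 peaks of WT, against 38.2% of all p65 peaks there. The site upstream of Cxcl11 was the only p65 site of the locus with a CTCF peak, in WT and WTLPS, which 6.33% of all p65 peaks in WTLPS had.

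STAT5, the factor activated by GM-CSF, had no peak at the promoters of the 3 genes in WT or KO, while 3.96% of protein-coding promoters had a STAT5 peak in WT and 3.29% in KO. It was found instead at both distal p65 sites. Upstream of Cxcl10 the STAT5 summit held 19 fragments in WT and 26 in KO, a ratio of KO to WT of 1.07 per coverage (0.568 to 2.04). Upstream of Cxcl11 it held 12 in WT and 17 in KO, a ratio of 1.10 (0.497 to 2.53). STAT5 was thus called in both genotypes at sites where p65 was not called in KO, although the STAT5 cells had been given GM-CSF again and the p65 cells had not. At the site upstream of Cxcl10, p65 was not called in WT or KOLPS either. The strongest STAT5 site of the locus lay 48.1 kb downstream of Cxcl9 beside Naaa, which encodes an amidase of N-acylethanolamines, with 73 fragments in WT and 66 in KO. The KO background was higher, at 1.70 fragments per base against 1.33, and KO against WT gave 0.705 per coverage (0.497 to 0.997), an interval below 1. Single STAT5 peaks were called 6.41 kb upstream of Cxcl11 in WT and 2.94 kb upstream of it in KO. A match of TTCNNNGAA lay within 50 bp of the summit at the sites beside Naaa and upstream of Cxcl10, and at 37.9% of all STAT5 summits in WT.

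CTCF was found at 13 sites of the locus and at none of the promoters of Cxcl9 and Cxcl10. At the Cxcl11 promoter a weak peak was called in WT alone, with 19 fragments, while 29.5% of protein-coding promoters had a CTCF peak in WT and 27.2% in WTLPS, and 19.1% in KO and 10.1% in KOLPS. WT had peaks at 13 sites, WTLPS at 11, KO at 3 and KOLPS at 2. Peaks numbered 14, 12, 5 and 2, as some sites held more than 1. Of the 14 WT peaks, 10 had no KO peak over them, against 76.3% of all WT peaks, and of the 12 WTLPS peaks 10 had no KOLPS peak, against 82.5%. The shares at the locus were close to those of the whole lists.

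The strongest CTCF sites, at summits 15.6 kb downstream of Cxcl9 and 16.5 kb upstream of Cxcl11, were the only sites with a CTCF peak in all 4 lists. They lie 69.546 kb apart with the 3 chemokine genes between them. The site beyond Cxcl11, whose core motif is printed above, held 159 fragments in WT and 124 in WTLPS, and 52 in KO and 40 in KOLPS. Per coverage, KO reached 0.414 times the WT signal there (0.297 to 0.570), and KOLPS 0.404 times that of WTLPS (0.276 to 0.581). The site beyond Cxcl9 held 93 fragments in WT and 76 in WTLPS, and 51 in KO and 34 in KOLPS. Its KO signal was 0.695 times that of WT (0.484 to 0.988), an interval that overlaps that of the site beyond Cxcl11. In WTLPS the ratios to WT were 0.825 (0.647 to 1.05) and 0.865 (0.630 to 1.18) at the site beyond Cxcl11 and the site beyond Cxcl9. The only other site with a KO peak lay 32.9 kb upstream of Cxcl11 inside Art3, with 66 fragments in WT, 47 in WTLPS and 19 in KO. A CTCF core match within 100 bp of the summit was found at 1 of the 13 sites and at 11.1% of all WT summits.

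SMC1 peaks over the locus were 21 for WT, 25 for WTLPS, 11 for KO and 10 for KOLPS. At equal list lengths the order turned, with KO minus WT at 4 and KOLPS minus WTLPS at 1. The peaks as deposited were spread over 31 sites, of which 9 were shared by all 4 lists and 10 were called in WTLPS alone. As many peaks were found around 2.58, 0.775, 5.42 and 1.88% of protein-coding genes in these lists. The bases of the locus under SMC1 peaks came to 8.15% in WT and 12.4% in WTLPS, and only 0.246% of protein-coding genes had a gain as large. In KO and KOLPS they came to 3.91 and 3.78%, while the whole SMC1 lists covered 36.7 Mb in WT, 35.5 Mb in WTLPS, 14.9 Mb in KO and 7.49 Mb in KOLPS.

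The SMC1 signal was lower in KO at the strongest CTCF sites, while at the Cxcl9 and Cxcl10 promoters the interval of the KO to WT ratio held 1. Both promoters had an SMC1 peak in all 4 lists, and of protein-coding promoters 30.4, 27.1, 21.6 and 13.9% had one in WT, WTLPS, KO and KOLPS. At the CTCF site beyond Cxcl11 the SMC1 summit held 240 fragments in WT and 229 in WTLPS, and 49 in KO and 41 in KOLPS, and the KO signal was 0.207 times that of WT per coverage (0.149 to 0.282). At the CTCF site beyond Cxcl9 it held 148, 130, 40 and 24 fragments in the same order, with a KO to WT ratio of 0.274 (0.188 to 0.390). At the Cxcl10 promoter it held 42 fragments in WT and 72 in WTLPS, and 44 in KO and 32 in KOLPS. KO against WT gave a ratio of 1.06 (0.679 to 1.66), an interval wholly above those of the CTCF sites. With LPS the Cxcl10 promoter signal in WTLPS was 1.61 times that of WT (1.08 to 2.41), while KOLPS against KO gave 0.864 (0.530 to 1.39). Among the LPS lists the KOLPS signal at Cxcl10 was 0.570 times that of WTLPS (0.364 to 0.876), an interval that overlaps that of KO against WT. At the Cxcl9 promoter the SMC1 summit held 34 fragments in WT and 51 in WTLPS, and 32 in KO and 24 in KOLPS. WTLPS against WT gave 1.41 (0.894 to 2.24) KO against WT 0.953 (0.569 to 1.59) and KOLPS against WTLPS 0.604 (0.355 to 0.999). Upstream of Cxcl11, at the p65 and STAT5 site, 74, 82, 58 and 38 fragments were stacked in the same order of lists. KO against WT gave 0.793 (0.553 to 1.13), although the CTCF peak of that site, with 56 fragments in WT and 46 in WTLPS, was not called in KO. KOLPS against WTLPS gave 0.594 there (0.394 to 0.883), an interval below 1. A lower KOLPS signal was not particular to the chemokine genes. Beside Naaa, 48.8 kb downstream of Cxcl9, KOLPS against WTLPS gave 0.552 (0.358 to 0.835). At the SMC1 site 4.90 kb upstream of Cxcl10 it gave 1.03 (0.540 to 1.92). The Cxcl11 promoter had an SMC1 peak in WTLPS only.

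**Figure D3:**
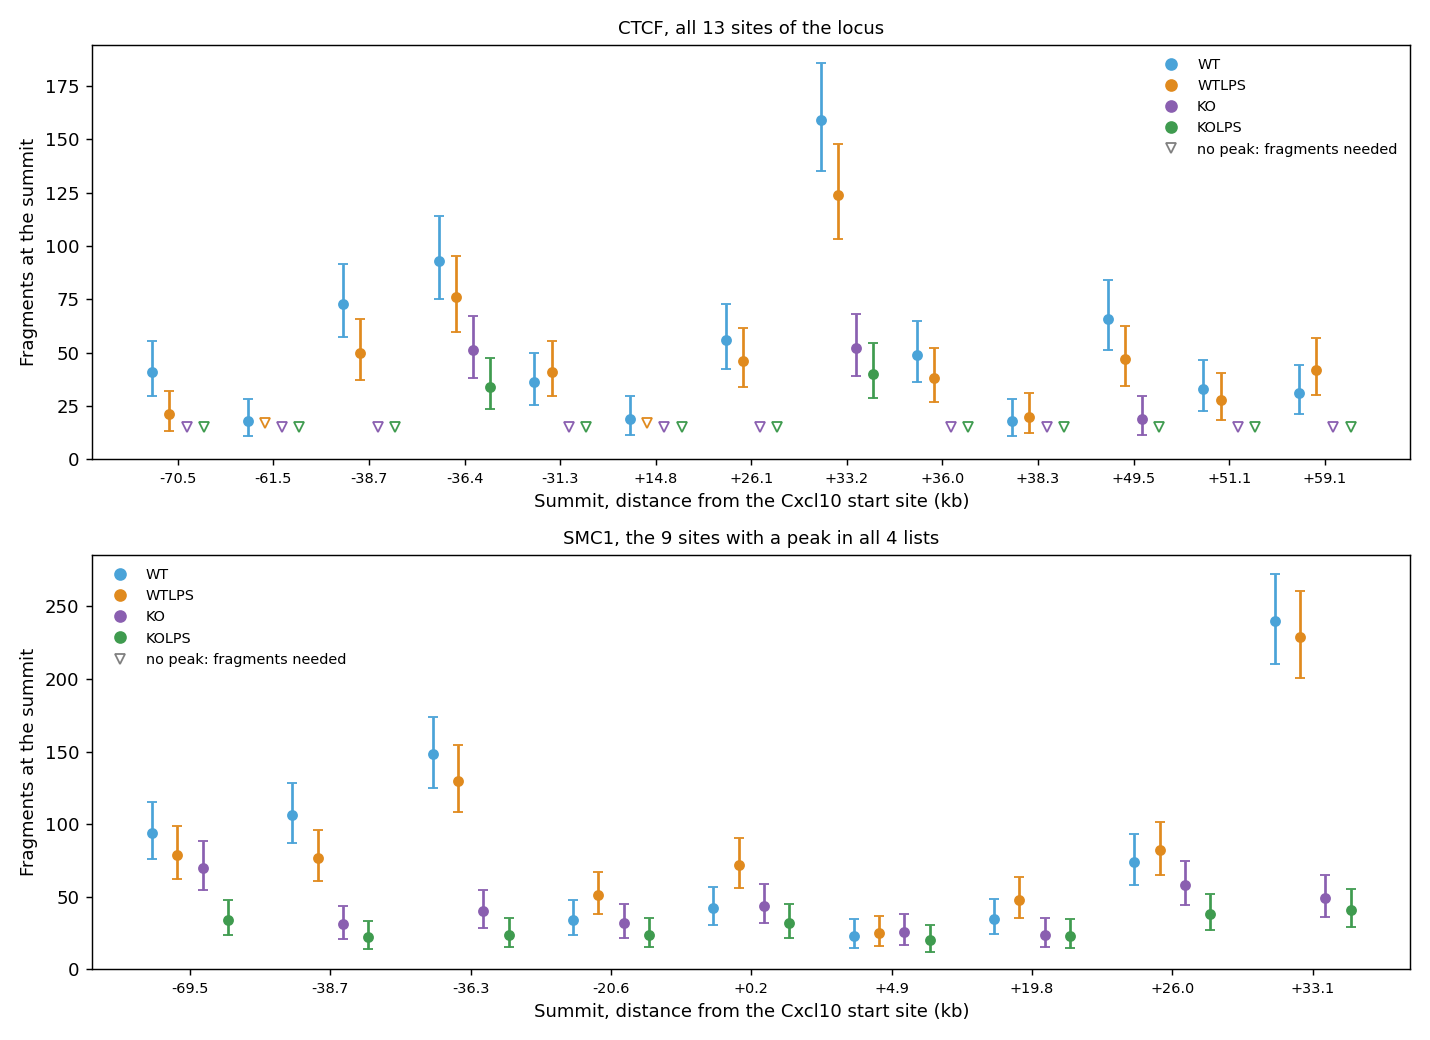
Fragments at the summit (y axis) of the 13 CTCF sites of the locus and of the 9 SMC1 sites with a peak in all 4 lists, by distance of the summit from the Cxcl10 start site in kb; bars are 95% Poisson intervals and open triangles give the fragments needed where no peak was called. The highest points are those of WT and WTLPS at +33 kb in both panels, while the SMC1 points near 0 kb, the Cxcl10 promoter, are highest in WTLPS.

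H3K27ac peaks over the locus were 18 for WT, 44 for WTLPS, 26 for KO and 40 for KOLPS. Counts of H3K27ac peaks depend on how far a wide region is broken up, so bases under peaks are given beside them. Thinned to the coverage of KOLPS, WTLPS would have kept 35.8 of its 44 peaks, fewer than the 40 of KOLPS. Bases under peaks came to 9.50% of the locus in WT and 20.1% in WTLPS, and 0.830% of protein-coding genes had a gain as large around them. In KO and KOLPS they came to 9.94 and 11.3%, and 3.27% of genes had a gain as large. The whole H3K27ac lists covered 60.9 Mb in WT, 59.6 Mb in WTLPS, 41.3 Mb in KO and 32.4 Mb in KOLPS, so the locus gained bases while the lists as a whole covered less after LPS. The background coverage of the H3K27ac libraries was lower in KO and KOLPS, at 0.748 and 0.801 fragments per base, than in WT and WTLPS, at 1.17 and 1.20.

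The 3 promoters differed in H3K27ac, which was called at 44.1% of protein-coding promoters in WT and 41.3% in WTLPS, and 44.5% in KO and 40.8% in KOLPS. At the Cxcl10 promoter peaks covered 1343 of the 5 kb in WT and 3471 bases in WTLPS, and 1176 bases in KO and 3315 in KOLPS. A gain as large was present at 0.438% of protein-coding promoters in WT cells and at 0.0593% in KO cells. The summit of the H3K27ac site over the Cxcl10 start held 15 fragments in WT and 32 in WTLPS, and 13 in KO and 36 in KOLPS. Its ratio with LPS was 2.09 per coverage in WT (1.10 to 4.15) and 2.59 in KO (1.34 to 5.31), both intervals above 1. KOLPS against WTLPS gave 1.68 (1.02 to 2.80), also above 1, from counts of 36 and 32 at a lower KOLPS background. The KOLPS peak ranked 303 of 78202 in its list. The next H3K27ac site reached into the promoter window, with its summit 4.63 kb upstream of the start. There KOLPS against WTLPS gave 0.906 (0.493 to 1.63), an interval that holds 1. At the Sdad1 promoter the same comparison gave 2.45 (1.09 to 5.73), so a ratio above 1 was not particular to Cxcl10. At the Cxcl9 promoter peaks covered 182 bases in WT and 2339 in WTLPS, and no H3K27ac peak was called there in KO or KOLPS. A gain as large as in WT was present at 0.419% of promoters. Beyond the 2.5 kb window, a peak was called 2.77 kb upstream of Cxcl9 in KOLPS, and 3.58 kb upstream in KO and KOLPS. A promoter with an H3K27ac peak in WTLPS and none in KOLPS was found for 10.3% of those with a WTLPS peak. At the Cxcl11 promoter no peak was called in WT or KO, 2411 bases were covered in WTLPS, a gain found at 0.305% of promoters, and 374 in KOLPS. An H3K27ac peak in both LPS lists and in neither unstimulated list, as at Cxcl11, was present at 0.374% of promoters.

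H3K4me3, the mark of active start sites, was found at the Cxcl10 promoter in all 4 lists. The strongest summit of each list held 16 fragments in WT and 26 in WTLPS, and 13 in KO and 10 in KOLPS. The WTLPS summit lay 1.16 kb downstream of the start, outside the WT and KO peaks, so these counts are not from the same position. The KOLPS signal was 0.394 times that of WTLPS per coverage (0.169 to 0.844). Peaks covered 1322 bases of the promoter in WT and 2633 in WTLPS, a gain found at 0.155% of promoters, against 1208 bases in KO and 1674 in KOLPS. After LPS the Cxcl10 promoter thus had fewer bases under H3K4me3 in KOLPS than in WTLPS and a lower H3K4me3 summit per coverage. This was not particular to Cxcl10. At the Sdad1 promoter the H3K4me3 ratio of KOLPS to WTLPS was 0.563 (0.381 to 0.824), with 2451 bases in WTLPS and 2180 in KOLPS. The ratio was below 1 at every H3K4me3 site of the locus with a peak in both LPS lists, though some intervals held 1. The H3K27ac summits over the Cxcl10 start and at the Sdad1 promoter were higher per coverage in KOLPS. The H3K27ac summit 4.63 kb upstream of Cxcl10 was not. Bases under H3K27ac at the Cxcl10 promoter were 3471 in WTLPS and 3315 in KOLPS. Over the locus, H3K4me3 peaks numbered 9, 14, 9 and 8 in the order WT, WTLPS, KO and KOLPS, and their bases came to 9.24, 9.22, 8.03 and 6.01%, so the higher count in WTLPS came with no more bases. At the Cxcl9 promoter a peak was called in WTLPS only, with 7 fragments, close to the 6 that a summit needed, and this pattern was present at 0.401% of promoters. No H3K4me3 peak lay at the Cxcl11 promoter in any list. The p65 site upstream of Cxcl11 had H3K4me3 in all 4 lists, with 15, 22, 11 and 9 fragments in WT, WTLPS, KO and KOLPS.

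H3K4me1, a mark of enhancers, covered 45.1% of the locus in WT and 47.6% in WTLPS, and 40.1% in KO and 25.05% in KOLPS. It lay at all 3 promoters in all 4 lists, and at 57.1, 57.3, 56.8 and 46.5% of protein-coding promoters. The whole KOLPS list was also shorter, with 149 Mb under peaks against 259 Mb in WT. Values of the H3K4me1 and H3K27me3 lists are averages over broad regions, from which no fragments were recovered. H3K27me3, the mark of Polycomb repression, lay at all 3 promoters in WT, at Cxcl9 alone in WTLPS, at Cxcl9 and Cxcl11 in KO and at none in KOLPS. In WT its peaks covered 1679 bases of the Cxcl9 promoter, 532 of Cxcl10 and 2031 of Cxcl11. The other calls were short, with 190 bases at Cxcl9 in WTLPS, and 168 at Cxcl9 and 197 at Cxcl11 in KO. The WTLPS peak ranked 62929 of 65880, near the end of its list. Among all protein-coding promoters, 27.1% had an H3K27me3 peak in WT and 20.8% in WTLPS, and 27.6% in KO and 11.8% in KOLPS. Over the locus the mark covered 14.6% of the bases in WT and 5.36% in KO, although the whole lists covered a similar 117 and 113 Mb, and 1.54% of genes had a loss as large around them. WTLPS had 4.87% and KOLPS 1.08%, with 56.7 and 18.7 Mb in the whole lists.

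The locus was then divided at the summits of its strongest CTCF sites, a division chosen after their values were seen. All p65 peaks of the locus lay between these sites. Between them H3K27ac covered 4.70% of the bases in WT and 31.6% in WTLPS, and 7.02% in KO and 18.5% in KOLPS. On the left, where Naaa and the ribosome biogenesis gene Sdad1 start, it covered 25.3% in WT and 16.0% in WTLPS, and 23.0% in KO and 8.10% in KOLPS. On the right it covered 1.03% in WTLPS and no bases in the other lists. H3K27ac was thus wider after LPS between the sites and narrower to the left of them, in both genotypes. H3K27me3 covered 18.6% of the bases between the sites in WT, 1.54% in WTLPS, 1.83% in KO and none in KOLPS, while on the right it covered 24.2, 17.8, 19.3 and 4.66% in the same order. The interval that held the chemokine genes thus had little H3K27me3 in KO before LPS, unlike the interval to the right of it. Of the 13 H3K27me3 peaks of the whole locus in WT, 10 had no KO peak over them, against 47.5% of all WT peaks.

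**Figure D4:**
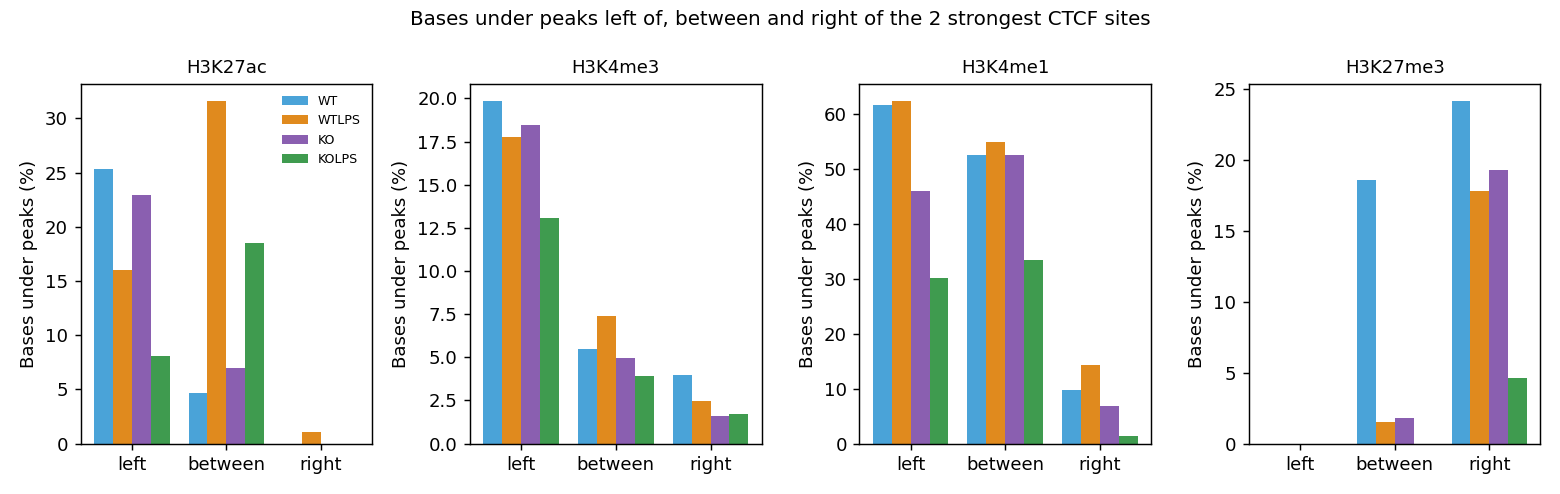
Share of bases under peaks (y axis, %) of 4 histone marks left of, between and right of the 2 strongest CTCF sites of the locus, for each condition; the chemokine genes lie in the middle interval. H3K27ac in the middle interval is 31.6% in WTLPS and 18.5% in KOLPS, above both unstimulated lists, and H3K27me3 there is 18.6% in WT and below 2% in the other lists.

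Naaa and Sdad1 had H3K4me3 peaks in all 4 lists, with folds from 20.7 to 30.6 at Naaa and from 21.2 to 37.6 at Sdad1, against 5.17 to 12.5 at Cxcl10, and no p65 or H3K27me3 peak. Art3, whose promoter window overlaps that of Cxcl9, had no p65 peak either and an H3K27me3 peak in WT alone. Its H3K27ac covered 388 bases in WT and 2207 in WTLPS, and 128 in KO and 692 in KOLPS.

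A list of 26 other genes of the pathway (8 from TLR4 to IRF3, 3 of NF-κB, 13 of interferon signalling, 2 acting on the chemokines) was examined for p65 at the promoter. The shares of all protein-coding promoters with a p65 peak were 2.86% in WTLPS and 1.86% in KOLPS. In WTLPS p65 peaks lay at 2 of 8 genes from TLR4 to IRF3, namely Myd88, the adaptor, and Tbk1, the kinase that acts on IRF3. They also lay at 2 of 3 NF-κB genes, Rela and its inhibitor Nfkbia, and at 3 of 13 interferon signalling genes, Ifnar1, Jak2 and Irf1. In KOLPS the peaks were at Tbk1, Nfkbia and Jak2. Nfkbia was the only gene of the list with a peak in WT or KO. At Nfkbia the summit held 30 fragments in WT and 28 in WTLPS, and 22 in KO and 40 in KOLPS, so p65 was called in KO at this promoter, unlike at Cxcl10. At Tbk1 it held 35 in WTLPS and 21 in KOLPS, and at Jak2 13 and 20. Neither Cxcr3, the receptor, nor Dpp4, the peptidase that trims these chemokines, had a p65 peak.

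Of 7 genes of the neutrophil-attracting chemokine cluster, p65 lay at 2 in WTLPS, Cxcl2 and Cxcl3, and at Cxcl2 in KO and KOLPS. Cxcl2 held 55 fragments in WTLPS, 11 in KO and 45 in KOLPS, and Cxcl3 held 18 in WTLPS. Of 21 interferon-stimulated genes, Gbp2 had a p65 peak in all 4 lists, with 10 fragments in WT and 15 in WTLPS, and 14 in KO and 15 in KOLPS, and Gbp5 in WTLPS with 22. H3K27ac lay at 19 of the 21 promoters in WT and 21 in WTLPS, and 19 in KO and 20 in KOLPS. Of all protein-coding promoters 44.1, 41.3, 44.5 and 40.8% had a peak in these lists. Before LPS, Cxcl10 had H3K27ac in WT and KO, Cxcl9 had 182 bases of it in WT alone and Cxcl11 had none.

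No protein-coding gene had promoter peaks in the same set of the 30 lists as Cxcl9, Cxcl10 or Cxcl11. The pattern of Cxcl10, with peaks in 20 of 30 lists, differed in 1 list from those of 6 genes, Actr3, Ccnl1, Dennd5a, Nfkbib, Sirt2 and Slc2a6, named after their values were seen. That of Cxcl9, with 15 lists, differed in 3 lists from that of Adipoq, and that of Cxcl11, with 10 lists, differed in 3 from those of 11 genes.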

How the data were processed

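ChIP-seq libraries for 8 antibodies were prepared from WT and KO BMDCs with and without LPS, and 30 peak lists with 4 input libraries make up the 34 samples. Per the methods, reads were trimmed and aligned to mm10, and the submitters' notes name BWA 0.7.12, Picard 1.77, MACS2 2.1.2 and deepTools 3.1.3. The methods of the study give another version of each of these tools. The authors deposited MACS2 peak lists, whose fold enrichment over background, −log10 p and −log10 q were computed by MACS2 from paired-end fragments. Each antibody and condition has 1 list. The study's reporting summary says, for its experiments in general, that biological replicates were merged and processed again together, and the ChIP-seq methods do not repeat this. The CTCF and SMC1 lists hold peaks with a −log10 p of at least 7, and H3K4me1 and H3K27me3 were called as broad regions. The antibody used for H3K4me1 is named differently in the peak names and the labels, as is the STAT5 catalogue number in the labels and methods.

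Fragments at a summit and the background per base were recovered from fold enrichment and p-value, and 99.95 to 100% of up to 4000 peaks checked in each narrow list matched within 0.002 in −log10 p. The same step returned 1500 of 1500 simulated peaks. Poisson intervals and ratios per background coverage cover counting error only, and read totals are not given in the lists. Background coverage ran from 0.705 to 5.77 fragments per base. Peaks overlapped by at least 1 bp. Peaks of any list of an antibody that overlapped were joined into sites, and genes were taken from GENCODE vM21 and sequences from RefSeq. The value of a site in a list is that of its strongest peak there, so the summits compared can lie at different positions. Named genes were the 3 members, protein-coding genes starting within the locus, pathway genes with a p65 promoter peak in WTLPS or KOLPS, and genes with a member's exact promoter pattern, of which there were 0. Genes with the closest patterns, Cxcr3, Dpp4, and genes of the neutrophil-attracting and interferon-stimulated lists fall outside this rule and were named after their values were seen. The members, lists and divisions were chosen with earlier results of these data known. No test was run, as no group has a replicate. Alternatives were stricter, common and equal-length lists, other flanks and promoter widths, and thinning to a common coverage. Python 3.11.15, scipy 1.17.1 and pysam 0.24.0 were used.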

Additional observations from a re-analysis of the deposited data

Results flagged for a closer look

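For 3 antibodies the number of peaks over the locus moved in opposite directions with LPS in WT and KO cells. SMC1 had 4 more peaks in WTLPS than in WT, and the difference of KOLPS minus KO was -1. H3K4me3 had 5 more peaks in WTLPS than in WT, and KOLPS minus KO was -1, while the bases of the locus under H3K4me3 came to 9.24% in WT and 9.22% in WTLPS. H3K4me1 gave -2 for WTLPS minus WT and 3 for KOLPS minus KO. Its bases moved the other way, with 45.1% in WT and 47.6% in WTLPS, and 40.1% in KO and 25.05% in KOLPS, so peak counts do not give the extent of the mark. With 1 list per condition these differences were not tested.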

How the results depend on the processing

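Of 638 values recomputed under an alternative, 501 stayed within 1.5 times, 126 moved further and 11 changed sign. Thinning a list to the lower coverage of another kept each count within 1.5 times, with the SMC1 peaks of WTLPS going from 25 to 18.3 at the KOLPS coverage. The differences between conditions, thinned as an alternative chosen after seeing the data, moved further in 6 of 21 cases and turned in 1, where H3K27ac of KOLPS minus WTLPS went from -4 to 4.23. A stricter threshold moved the most values (42), and equal list lengths, with each list cut to the shortest of its antibody, changed the most signs (7). At equal lengths p65 gave 0 peaks over the locus and 0 promoters in WTLPS and in KOLPS, since the 504 strongest peaks were kept and the Cxcl10 peak ranked 551 in WTLPS, and WTLPS minus WT became -2. CTCF gave 2 in WT, 3 in WTLPS and 2 in KO, with WTLPS minus WT at 1. SMC1 gave 5 in WT and 9 in WTLPS, with KOLPS minus KO at 1, KO minus WT at 4 and KOLPS minus WTLPS at 1. KO minus WT of H3K4me1 became 1, also at a common p-value threshold, and KOLPS minus KO of H3K27me3 became 2. At a −log10 q of at least 5, p65 gave 1 peak in KOLPS, H3K27ac gave 10, 20, 14 and 19 in WT, WTLPS, KO and KOLPS, and H3K4me3 gave -1 for WTLPS minus WT. With 25 kb flanks CTCF gave 9 in WT and H3K27ac 16 in KO. With 100 kb flanks CTCF gave 22 in WT and 4 in KOLPS, SMC1 17 in KO and H3K27ac 30 in WT. Joining peaks less than 500 bp apart, an alternative chosen after seeing the data, gave 11 H3K27ac peaks in KO and 25 in KOLPS, with KO minus WT at -2. Apart from the changes that the shorter lists and other windows make by construction, the cause was not tested. No paired analysis was possible because each antibody and condition has 1 list. Without replicates the spread between cultures is not known, and a peak not called is not an absent protein.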
